A study of Homo sapiens with 22 samples.

Results

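The 402 moderate H520-biased tags are short sequences, each carried in the transcript of a reporter plasmid, that were read more often in RNA from H520 cells than in RNA from A549 cells. They were picked by measured values from the 211385 tags with 100 or more counts in both input DNA libraries, of which they are 0.190%, and the libraries listed 238017 tags in all. Activity was the log2 of a tag's RNA level over its H520 input level, both in TPM (here a tag's counts per M counts of the library, with M for mega) plus 0.5, minus the median of the library, so that 0 is the typical tag. A member had a mean activity in H520, h, from 1 to under 3, and an h at least 1 above the mean activity in A549, a, with each mean taken over 10 RNA libraries. The values of h, a and their difference chose the members, so they are given as a description with no test.

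Reporter plasmids were transfected into A549, a human lung adenocarcinoma cell line, and into H520, a human lung squamous cell carcinoma cell line. The input titles are A549_Input_v1 and H520_Input_v2, and the titles do not say what the versions stand for. In each line 5 RNA libraries came from cells given dimethyl sulfoxide (DMSO), the solvent, and 5 from cells given 10 µM benzo(a)pyrene (BaP), and the input DNA was read in 1 library per line. BaP is a polycyclic aromatic hydrocarbon of tobacco smoke and a ligand of the aryl hydrocarbon receptor. It was applied for 18 h to A549 and for 42 h to H520, so the lines differ in exposure as well as in identity, and the labels give no time for DMSO. RNA libraries held 177.6 to 371.4 M counts, the A549 input 333.5 M and the H520 input 265.8 M. The transfections were numbered 1 to 5, and the labels do not tie them to separate cultures, so p-values measure the spread between transfections, which may be technical.

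In a reporter assay of this kind, a cloned fragment drives a plasmid gene, and the tag in the transcript tells the reporters apart, so that RNA over input DNA is a measure of transcription. Reporter activity differs between cell lines because each line has its own set of transcription factors. Several tags can mark 1 fragment, and no table that links tags to fragments or alleles was used here, so the tags are not independent of each other and are described by their own sequence. Tags are 15 bases long, and after 12 variable bases each ends in the same 3, ggc. The tag is itself DNA of the plasmid, and a recognition sequence of a DNA-binding protein can occur in it. Factors of the C/EBP family and of the ATF and CREB family are basic leucine zipper proteins that bind DNA as dimers. TTGC is a C/EBP half-site and GTCA a half-site of the ATF and CREB family. The composite C/EBP-ATF element, TTGCATCA or TGATGCAA on the other strand, joins TTGC to a variant of the ATF half-site and is bound by dimers of C/EBP proteins with ATF4, a factor of the integrated stress response.

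One octamer was shared by more members than any other. The 211385 tags together hold 13196 distinct octamers, with both strands counted together. TTGCGTCA, or TGACGCAA on the other strand, was in 56 members (13.9%) and in 162 of the 211385 tags (0.0766%). It joins the half-sites TTGC and GTCA named above and differs from the composite C/EBP-ATF element TTGCATCA at 1 base, which lies in the second half-site. Of the 162 tags with it, 34.6% were members, 9 were balanced tags (h from 1 to under 3 with an h within 1 of a) and 1 was a stronger H520-biased tag (h of 3 or more). The octamer search was made with the members' values known and is a description, not a site or a cause. Examples shown for a sequence were taken from tags with 500 or more counts in both inputs. The tags below are the members with the octamer that have the widest line difference in each orientation, with the octamer in capitals, written 5′ to 3′ as deposited.
Member 1, octamer as deposited: gaTTGCGTCAtaggc
Member 2, octamer as deposited: TTGCGTCAtccaggc
Member 3, octamer as deposited: agTTGCGTCAgcggc
Member 4, octamer as deposited: gaTTGCGTCAgaggc
Member 5, octamer on the other strand: TGACGCAAtctgggc
Member 6, octamer on the other strand: TGACGCAAcccgggc

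The first of these, gaTTGCGTCAtaggc, had the third largest line difference of the members with 500 or more counts in both inputs, 2.18. In A549 its activity in transfections 1 to 5 was 0.26, 0.06, 0.03, 0.30 and 0.35 with DMSO, and 0.23, 0.35, 0.28, 0.37 and 0.24 with BaP. In H520 it was 2.50, 2.27, 2.09, 2.44 and 2.53 with DMSO, and 2.55, 2.42, 2.38, 2.49 and 2.56 with BaP. It stood near the typical tag in every A549 library and far above it in every H520 library, and within H520 transfection 3 was the lowest under both treatments. TTGCGTCAtccaggc, which starts with the octamer, was below the typical tag in A549, where its activity with DMSO was -0.28, -0.23, -0.52, -0.35 and -0.41. In H520 with DMSO it was 1.67, 1.59, 1.40, 1.59 and 1.81. TGACGCAAcccgggc, which starts with the octamer on the other strand, had with DMSO a mean activity of 0.30 ± 0.09 over the 5 A549 libraries and of 1.63 ± 0.10 over the 5 H520 libraries (SD).

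The octamer did not by itself mark a member, since only 56 of its 162 carriers met the rule. The median over all carriers was 0.84 for h, 0.22 for a and 0.65 for the difference. The 3 carriers below are the ones nearest the median difference of carriers with T before the octamer or A after it, both read along TTGCGTCA, and none is a member. They are shown for their flanks, with the octamer in capitals.
Carrier 1, not a member: ctTGACGCAAacggc
Carrier 2, not a member: gtTGACGCAAacggc
Carrier 3, not a member: atTGACGCAAttggc

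Carrier gtTGACGCAAacggc had activities of 0.07, -0.03, -0.20, -0.06 and 0.03 in transfections 1 to 5 of H520 with DMSO. In A549 with DMSO they were -0.11, -0.17, -0.00, -0.29 and -0.14, so the lines overlapped. Its h was -0.04 and its a was -0.17. It stayed near the typical tag in both lines, while TGACGCAAcccgggc, with the same octamer on the same strand, had an h of 1.68. These tags differ in the place of the octamer, which starts the latter tag, and also in its flanks. Read along TTGCGTCA, gtTGACGCAAacggc has T before it and A after it, and TGACGCAAcccgggc has G before it.

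Among the 162 carriers the line difference went with the bases on either side. With G after the octamer, 63 carriers had a median difference of 1.09 and 36 were members, and with T after it, 24 had 1.12 and 12 were members. With A after it, 55 carriers had a median of 0.11 and 3 were members. Before the octamer, A gave 1.02 in 37 carriers and G gave 1.07 in 37. C before it gave 0.28 in 45 carriers with 6 members, and T gave 0.13 in 17 carriers with 0 members. The 44 carriers with A or G before and G or T after had a median h of 1.75 and a median a of 0.43, and 31 of them (70.5%) were members. The 64 carriers with T before or A after had a median h of 0.10, and 3 of them (4.69%) were members. These flank classes were formed with the values in view.

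Orientation differed as well. As deposited, 86 carriers had a median difference of 1.09 and 47 (54.7%) were members, while on the other strand 76 carriers had 0.22 and 9 (11.8%) were members. Orientation and flank overlap, because the constant ggc supplies part of a flank when the octamer lies at the end of the tag, and A followed the octamer in 39 of the 76 carriers on the other strand against 16 of the 86 as deposited. With A after the octamer the median difference was 0.28 as deposited and 0.03 on the other strand. With A before it, it was 1.30 as deposited and 0.79 on the other strand, and with G before it 1.27 and 0.19. With C before it, 16 carriers as deposited had 0.66 (6 members) and 29 on the other strand 0.14 (0 members). G after it gave 1.27 as deposited and 0.49 on the other strand. All 17 carriers with T before it were on the other strand, and all 24 with T after it were as deposited. For T, flank and orientation thus cannot be told apart. Tags too shallow for the rule (10 to 99 counts in 1 or both inputs) took no part in choosing the octamer. Of the 8 such tags that hold it, 4 had a difference of 1 or more, beside 71 of 11311 shallow tags (0.628%). The median difference was 0.81 in the 8 and -0.07 in the 11311. These tags were read in the same libraries and by the same measure, and the 0.5 TPM added to each level weighs more at such low inputs. They are thus a description and not a separate test of the octamer.

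Single-base changes of TTGCGTCA give a map of which letters went with the line difference. Of 24 possible changes, 17 were found in at least 1 tag, in 31 to 244 tags each, and 9 were found in members. Positions are counted from 1 at the 5′ end of TTGCGTCA, with the octamer's base first. The median differences of the 17 ranged from -0.01 to 0.29, all below the 0.65 of the octamer itself. The octamer was picked as the most frequent in members, which the rule chose by this difference. Its larger median thus follows in part from that choice. The largest belonged to G3T at 0.29, T2G at 0.24, G5A at 0.22 and T6C at 0.21. G5A gives TTGCATCA, the composite C/EBP-ATF element named above. At the other end, T1A (205 tags) had -0.01, T2A (224 tags) 0.02, G3C (176 tags) 0.02 and C4G (31 tags) 0.01, with 0 members among them. C7A, which gives TTGCGTAA, a sequence close to a palindrome of C/EBP half-sites, had a median difference of 0.16 in 244 tags. These medians cover all flanks, so tags that differ in the octamer also differ in what surrounds it.

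Related octamers were in 47 members without TTGCGTCA (11.7%), so 103 members (25.6%) held one of the group, against 740 of all tags (0.350%). The group was formed with the members' values in view, from the single-base changes with the most members and TTTCATCA. Its excess in members thus follows in part from that choice and is a description. T2G (1 member) and T6C (2 members) stayed outside it. Their median differences, 0.24 and 0.21, were above the 0.16 of C7A and the 0.15 of C7T. TTGCGTAA was in 15 members of 244 tags, TTTCGTCA in 11 of 132, TTGCATCA in 7 of 32 (21.9%) and TTGCGTTA in 6 of 114. TTTCATCA, which differs from TTGCGTCA at 2 bases, was in 8 of 56. The member with the widest line difference for each is shown, with the octamer in capitals.
TTGCGTAA: gaTTGCGTAAgtggc
TTTCGTCA: gtaTTTCGTCAgggc
TTGCATCA, other strand: TGATGCAAccgcggc
TTGCGTTA: cgaTTGCGTTAcggc
TTTCATCA: tagTTTCATCAtggc

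The member gaTTGCGTAAgtggc was near the typical tag in every A549 library and far above it in every H520 library. Its activity in A549 with DMSO was 0.07, 0.04, 0.21, 0.01 and 0.02 in transfections 1 to 5. In H520 with DMSO it was 2.07, 2.06, 1.97, 2.20 and 2.34. TGATGCAAccgcggc, with the composite element, had with DMSO a mean activity of 0.37 ± 0.07 over the 5 A549 libraries and of 1.97 ± 0.16 over the 5 H520 libraries (SD). The difference h minus a was 2.10 for the first and 1.67 for the second. For gtaTTTCGTCAgggc h was 1.62 and a 0.05, for tagTTTCATCAtggc 1.60 and 0.17, and for cgaTTGCGTTAcggc 1.11 and -0.31.

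A second sequence, CGCCAT, was in 20 members (4.98%) and in 725 of all tags (0.343%). It holds GCCAT, the core that the zinc finger factor YY1 recognizes. Its share was not particular to the members, since 70 of the 1273 balanced tags (5.50%) held it. Of the 20, 19 held no octamer of the group above. The 2 members without an octamer of that group that have the widest line difference are shown, with CGCCAT in capitals. Both also hold TTGCGCCA, the T6C change of TTGCGTCA described above, and no other member holds it, so they are not free of octamer-like sequence.
CGCCAT member 1: cgttgCGCCATcggc
CGCCAT member 2: gattgCGCCATtggc

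For gattgCGCCATtggc, activity in A549 with DMSO was 0.43, 0.59, 0.15, 0.44 and 0.32, and in H520 with DMSO 1.84, 1.66, 1.51, 1.67 and 1.82. Its h was 1.77 and its a 0.40, while cgttgCGCCATcggc had an h of 1.19 and an a of -0.29. Most CGCCAT members lost this width when each line was divided by its own input: 5 of the 19 (26.3%) then had a difference of 1 or more, with a median of 0.86, and both members shown are among the 5.

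A list of general promoter and RNA-processing motifs gave shares near the background. The polyadenylation signal AATAAA or ATTAAA, read on the deposited strand, was in 1 member (0.249%, against 0.255% of all tags). GCGTG, the core of the element bound by the aryl hydrocarbon receptor, was in 3 (0.746% against 0.568%), the AP-1 site TGANTCA in 0 (0.0624% of all tags), the E-box CANNTG in 10 (2.49% against 1.77%) and the GC box GGGCGG in 2 (0.498% against 0.304%), all on both strands. TGACGTAA, a variant of the cAMP response element, was in 0 members and in 91 of all tags. Base composition was near that of the pool, with a mean GC content of the 12 variable bases of 49.5% in members and 47.7% in all tags. A tag at 1 mismatch was present for 396 members (98.5%) and for 97.9% of all tags. Another member was at 1 mismatch for 87 members, and 80 of those 87 held an octamer of the group. The 1375 neighbours at 1 mismatch that were no members had a median line difference of 0.07.

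The remaining 280 members (69.7%) held neither an octamer of the group nor CGCCAT, among them the member with the highest h and, of those with 500 or more counts in both inputs, the 2 with the largest line differences. They are shown as examples of members with no shared sequence found here.
Largest difference: gtcagcgtaaggggc
Second largest difference: tggcgaatttctggc
Highest h: gtcataaggcttggc

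For gtcagcgtaaggggc the activity in A549 was 0.11, 0.42, 0.40, -0.03 and 0.01 with DMSO and 0.54, 0.35, 0.13, 0.34 and 0.03 with BaP. In H520 it was 2.30, 2.40, 2.17, 2.54 and 2.38 with DMSO and 2.65, 2.58, 2.46, 2.60 and 2.63 with BaP. The lines stood 2.24 apart on average, the widest gap of the members with 500 or more counts in both inputs. For tggcgaatttctggc h was 2.64 and a 0.42. The member with the highest h, gtcataaggcttggc, was active in both lines, whose DMSO libraries gave 1.45, 1.54, 1.54, 1.55 and 1.51 in A549 and 2.93, 3.05, 2.82, 3.09 and 2.96 in H520.

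Over all 402 members the median was 1.89 for h (quartiles 1.36 and 2.45), 0.50 for a (quartiles 0.12 and 0.99) and 1.28 for the difference (lower quartile 1.13, highest 2.24). The median member was thus 3.72-fold above the typical tag in H520 and 1.41-fold above it in A549. In A549, 54 members were below the typical tag, 148 had an a from 0 to under 0.5, 102 from 0.5 to under 1, and 98 of 1 or more. Members thus ranged from tags below the pool's typical level in A549 to tags active in both lines, with a highest a of 1.90. The difference was 1.5 or more for 103 members and 2 or more for 9. Every H520 library was above every A549 library for 402 of 402 members, beside 15.4% of all tags, which the rule itself favours. A difference of 1 or more was met by 801 of all tags (0.379%).

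At the edges of the rule the tags were close to each other. The member just inside the lower limit of h had 1.004 and the tag just outside 0.993. At the upper limit the values were 2.992 and 3.0005. At the difference of 1 they were 1.0027 inside and 0.9991 outside.

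The members took 0.197% of the counts of the A549 input and 0.220% of the H520 input. Their share of A549 RNA counts was 0.310% ± 0.022 with DMSO and 0.310% ± 0.038 with BaP (SD, n = 5 each). Their share of H520 RNA counts was 0.878% ± 0.045 with DMSO and 0.929% ± 0.038 with BaP (SD, n = 5 each). The members' median activity in transfections 1 to 5 was 0.48, 0.54, 0.53, 0.50 and 0.45 in A549 with DMSO. With BaP it was 0.59, 0.57, 0.45, 0.48 and 0.41. In H520 the DMSO medians were 1.86, 1.82, 1.69, 1.88 and 1.96, and the BaP medians 1.99, 1.93, 1.84, 1.96 and 1.99. The lowest of both H520 treatments was transfection 3, and in A549 the treatments overlapped, with a wider range of medians under BaP.

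Members with and without an octamer of the group were spread differently over h. The 103 with one were most frequent between an h of 1.6 and 1.8, where 26 lay, and their median activity with DMSO was 0.36 ± 0.02 over the 5 A549 libraries and 1.64 ± 0.14 over the 5 H520 libraries (SD). The others fell into a lower and an upper band with few tags between, 8 from 1.6 to under 1.8 and 10 from 1.8 to under 2.0, beside 44 from 1.0 to under 1.2 and 53 from 2.4 to under 2.6. Divided at an h of 1.7, a value set after seeing this gap, 118 members had a median h of 1.26 and a median a of 0.08, and 181 had 2.45 and 1.01. In A549 the lower band's median was near the typical tag and the upper band's well above it. The medians of the octamer group lay between those of the bands in both lines.

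The input libraries of the lines differed for these tags, and the rule divides both lines by the H520 input. The log2 ratio of H520 to A549 input, centred on all tags, had a median of 0.17 in members (quartiles 0.02 and 0.36) and was above 0 in 314 (78.1%), against 50.0% of all tags. It was 0.5 or more in 59 members (14.7%), against 5.13% of all tags, and its median was -0.03 in the balanced tags and 0.27 in the stronger H520-biased tags. With each line divided by its own input, the members' median difference was 1.16 (quartiles 0.93 and 1.35). It stayed at 1 or more in 269 members (66.9%) and at 0.5 or more in 393 (97.8%), and 0.211% of all tags had such a difference of 1 or more. Of the 103 members with an octamer of the group, 79 (76.7%) stayed at 1 or more. Each input was 1 library, so this ratio has no replicate. The input titles also differ in version, v1 for A549 and v2 for H520, and the part of that in the ratio was not tested.

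The size of this shift varied from member to member. The member with the highest input ratio, cgcgcgactatcggc, had 694 counts in the A549 input and 1336 in the H520 input, and its difference of 1.68 became 0.59 with own inputs. The member with the lowest ratio, ggtaagcgttatggc, had 4059 and 2330 counts, and its difference of 1.27 became 1.73. For the octamer member gaTTGCGTCAtaggc the difference of 2.18 became 1.74, and for gtcagcgtaaggggc the 2.24 became 1.97. The share of tags that met the rule also rose with input depth, from 0.158% of tags with 100 to under 500 counts in the H520 input to 0.282% of those with 2000 or more. The pseudocount of 0.5 TPM shrinks the values of shallow tags more, by construction. The rule picked 457 tags with a pseudocount of 0.1 TPM and 284 with 2 TPM. The part of the pseudocount in this rise was not tested.

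The members were read deeply in most libraries. The median member had 1300.5 counts in the A549 input and 1239.5 in the H520 input, with lowest values of 102 and 143. In RNA the median member had 1203.5 to 2117 counts per A549 library and 3200 to 6484 per H520 library. Counting alone gives an SD of log2 of 0.04 for the median member in A549 RNA and 0.02 in H520 RNA, and of 0.14 for the shallowest member in the A549 input. No molecular identifiers are described, so reads are not independent molecules and these SDs cover counting error only. The median SD between the 5 transfections of a group was 0.10 in members and 0.11 in all tags in A549 with DMSO, 0.11 and 0.09 in A549 with BaP, 0.11 and 0.10 in H520 with DMSO, and 0.09 in both in H520 with BaP. The median spread over all members was thus like that over all tags, and it was larger than the members' counting error. Counting error was worked out for members alone, so this likeness is one of total spread. Sets of members differed in it. In A549 with BaP the median SD was 0.17 in the upper band, 0.09 in the lower band and 0.09 in the octamer group. In H520 with DMSO it was 0.11, 0.08 and 0.14 in the same order.

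The treatment comparison did not enter the rule and asks whether BaP changed the members' transcription. In H520, 0 of 402 members passed an adjusted p of 0.05 by edgeR's quasi-likelihood test over 223732 tags, beside 0.0% of all tags in either direction. This fit did not pair libraries by transfection number. The fit with the number as a replicate block, which did call members in H520, is given with the processing alternatives at the end. At an unadjusted p of 0.05, 113 members were on the high side with BaP, or 28.1% against 2.36% of all tags, and 4 were on the low side, against 2.35% of all tags. The log2 fold change was above 0 in 332 members (82.6%), against 50.0% of all tags, with a median of 0.09, or 1.06-fold (quartiles 0.02 and 0.13). Without transfection 3 of DMSO, the library with the lowest median in H520, the median was 0.05 and 75 members were on the high side at an unadjusted p of 0.05. Over all tags, 5222 of 223832 were on the high side in that fit. These small values share 10 libraries, so the members are not separate evidence. DESeq2 called 4 members, all higher (0.0251% of the tags with an adjusted p were). The members' median activity was higher with BaP than with DMSO in libraries 1 to 5 by 0.13, 0.11, 0.15, 0.08 and 0.04. The treatments overlapped, since the DMSO median of transfection 5 was above the BaP medians of transfections 2 and 3.

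The members with an octamer of the group were all on one side of 0. Their log2 fold change in H520 was above 0 in 103 of 103, against 50.0% of all tags, with a median of 0.12. By edgeR 34 (33.0%) had an unadjusted p under 0.05, all higher, against 2.36% of all tags on that side. Over all 162 carriers of TTGCGTCA, members or not, it was above 0 in 147 with a median of 0.09. The CGCCAT members had a value above 0 in 17 of 19, with a median of 0.10. Of the members without an octamer, the upper band had 162 of 181 above 0 (median 0.09) and the lower band 67 of 118 (median 0.01). Among the balanced tags 759 of 1273 were above 0 with a median of 0.02, and among the stronger H520-biased tags 65 of 70 with a median of 0.07. The median activity of the octamer group's members was 1.73, 1.57, 1.44, 1.64 and 1.80 in H520 with DMSO and 1.84, 1.68, 1.65, 1.77 and 1.91 with BaP. Each transfection number was higher with BaP, but the treatments overlapped.

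Single members show how small the treatment values were. The member with the smallest p on the high side was ttcgtttaccggggc. Its activity in H520 was 2.45, 2.41, 2.30, 2.46 and 2.56 with DMSO and 2.58, 2.61, 2.58, 2.71 and 2.73 with BaP, so that every BaP library was above every DMSO library. The log2 fold change was 0.21 (SE 0.045) with an adjusted p of 0.998 by edgeR. Such a full separation upward was seen in 14 members (3.48%, against 0.416% of all tags) and downward in 0 (against 0.391% of all tags). For gtcagcgtaaggggc, whose values are given above, the log2 fold change in H520 was 0.23 (SE 0.050), with an adjusted p of 0.998 by edgeR. On the low side, ctagctcgtatgggc had the smallest p. Its activity in H520 was 1.44, 1.29, 1.10, 1.36 and 1.28 with DMSO and 1.16, 1.08, 1.02, 1.13 and 1.30 with BaP, which overlap. Its log2 fold change was -0.17 (SE 0.060), with an adjusted p of 0.998 by edgeR.

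The 4 members called by DESeq2 in H520, of 309 for which it gave an adjusted p, held neither an octamer of the group nor CGCCAT. By DESeq2, accttcgtttatggc had 50.8 ± 2.31 TPM with DMSO and 58.1 ± 3.22 TPM with BaP (SD, n = 5; adjusted p = 0.0256). For ttcgtttaccggggc the DESeq2 values were 41.7 ± 2.72 and 48.2 ± 2.39 TPM (SD, n = 5; adjusted p = 0.0256). The other two were ctattagttaagggc with 14.6 ± 0.658 and 16.6 ± 0.510 TPM (DESeq2, adjusted p = 0.0332), and gcgagacgcattggc with 26.5 ± 1.05 and 29.6 ± 0.753 TPM (DESeq2, adjusted p = 0.0370). Over all tags DESeq2 called 5 higher (0.0251% of 19911) and 6 lower (0.0301%), and these calls were not made by the main test.

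In A549, 0 of 402 members passed edgeR's test over 223066 tags, beside 0.0% of all tags, and DESeq2 called 0. At an unadjusted p of 0.05, 2 members were on the high side, against 1.18% of all tags, and 5 on the low side, against 1.42% of all tags. The log2 fold change was above 0 in 229 members, against 49.3% of all tags, with a median of 0.01, which became -0.03 without transfection 1 of BaP and was below 0 also without transfection 5 of DMSO. No member had every BaP library above every DMSO library (0.252% of all tags did) or below (0.224%). For members with an octamer of the group the median was also 0.01, with 56 of 103 above 0. The smallest p on the high side belonged to agctcgatgcagggc with 0.19 (SE 0.087), and on the low side to cgaggtccttatggc with -0.14 (SE 0.050). Both had an adjusted p of 0.9999 by edgeR.

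The difference between the BaP responses of the lines, fitted as an interaction over 222669 tags, passed edgeR's adjusted threshold in 0 members, beside 0.0% of all tags, and DESeq2 called 0. At an unadjusted p of 0.05 it was higher in H520 for 19 members, against 1.81% of all tags, and lower for 2, against 1.65% of all tags. It was above 0 in 305 members, against 50.1% of all tags, with a median of 0.07, and in 93 of 103 members with an octamer of the group, with a median of 0.11. Without transfection 5 of BaP in A549, or without transfection 3 of DMSO in H520, this median over all members was 0.04, and without transfection 1 of BaP in A549 it was 0.10. The 19 members became 64 without that last library, 37 without H520 BaP transfection 3, 38 without H520 DMSO transfection 5, 10 without H520 DMSO transfection 3, and 12 without transfection 5 of BaP in either line. Over all tags, the same fits had in this order 4009, 4564, 4169, 3893, and 3622 (A549) and 3803 (H520) tags higher. These are of 222674 to 222678 tags tested, and the full fit had 4024 of 222669. The value with the smallest p on the high side was that of CGCCATttcgtcggc at 0.49 (SE 0.168), which had -0.33 in A549 and 0.16 in H520 and only 242 and 194 counts in the A549 and H520 inputs. On the low side it was ctagctcgtatgggc at -0.28 (SE 0.117). A response of H520 members other than that of A549 members was therefore not shown for any single tag, and the line and the exposure time cannot be told apart in this term.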

How the data were processed

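Reporter tags were amplified from cDNA of polyadenylated RNA and from input DNA and sequenced, per the labels' protocols. The authors used bcl2fastq, per the submitters' processing notes, and the matching of reads to tags was not given in the sources used here. The deposited tables hold, per the file headers, the raw count of each tag and its TPM, the count over the library's total in M. Groups were taken from sample titles, and unlisted tags were set to 0. The members, the motif lists and the tests were chosen with earlier results of these data known, and the octamers, flanks and the divide at an h of 1.7 after the values were seen.

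Activity used a pseudocount of 0.5 TPM. BaP was compared with DMSO on the deposited counts with edgeR 4.0.16 in R 4.3.3 (quasi-likelihood test, TMM scaling, filterByExpr, robust dispersion, Benjamini-Hochberg adjustment over all tags tested). Tags needed 10 or more counts in the input of the line, or in both inputs for the interaction. Tags were named by rank of h, of the line difference, of the input ratio, of p in each test and by place at the limits of the rule. Octamer, flank and CGCCAT examples were added later. Alternatives were DESeq2 1.42.0, RLE scaling, no filter, 100 or more counts in both inputs, other pseudocounts and inputs, a non-robust fit, a replicate block and leaving out each library. The scripts were tested on simulated data. Tables were joined with pandas 2.3.3 in Python 3.11.15. The tags have no genome position, so no build or annotation was used.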

Additional observations from a re-analysis of the deposited data

Results flagged for a closer look

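For the named members and the medians of the member sets, 148 groups of 5 libraries were searched for a library far from the other 4, and 6 groups had one. By chance about 1 in 20 groups is marked in this way. Member caagccaatttcggc had an activity of 0.0507 in A549 with BaP, transfection 1, against -0.0577 to -0.0378 in the others. Member ggattgcgtagcggc had 0.000442 in A549 with DMSO, transfection 5, against 0.0836 to 0.104. The same member had 0.108 in A549 with BaP, transfection 1, against -0.0143 to 0.0119. The octamer member TGACGCAAcccgggc had 1.87 in H520 with BaP, transfection 1, against 1.68 to 1.72. The CGCCAT member cgttgCGCCATcggc had -0.486 in A549 with DMSO, transfection 4, against -0.308 to -0.242. Member ctagctcgtatgggc, which also had the smallest p on the low side of the BaP comparison in H520, had -0.552 in A549 with DMSO, transfection 3, against -0.141 to -0.0601. The medians over the members and their octamer and band sets had 0 such libraries.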

How the results depend on the processing

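The rule picked 284 to 571 tags under the other pseudocounts, inputs and left-out libraries, within 1.5 times the 402. Of 78 alternatives of the main results without left-out libraries, 72 stayed close to the main value. Close meant within 1.5 times for counts, shares and spreads, and within a set distance for medians, and a count of 0 had to stay 0. A reversed sign with a call was looked for only in the members named by p in the BaP comparisons, and 0 were found. The labels do not say that the transfection numbers shared by DMSO and BaP pair the libraries, and the deviations left this unsettled. The correlations of same-numbered libraries were 0.04 to 0.16 in H520 and -0.02 to 0.49 in A549, with 1 and 3 of 5 above 0.1, where all 5 would be needed to treat them as pairs. As a hint of pairing, 9 of 10 libraries correlated best with their own number in H520, and 5 of 10 in A549. With the number as a replicate block, edgeR called 54 members in H520, all higher (0.0384% of all tags were called higher and 0.0286% lower), and 0 in A549 and for the interaction. The block moved the members at an unadjusted p of 0.05 from 117 to 215 in H520, from 7 to 15 in A549 and from 21 to 67 for the interaction. With the block, 207 were higher and 8 lower in H520, against 3.13% and 3.02% of all tags. In A549, 7 were higher and 8 lower, against 1.94% and 2.06% of all tags. For the interaction, 62 were higher and 5 lower, against 2.46% and 2.36% of all tags. DESeq2 called 4 members in H520, and over all tags 11 were called by DESeq2 and 150 with the block, against 0 without it. The cause was not tested. A pseudocount of 2 TPM lowered the median line difference of the TTGCGTCA carriers from 0.65 to 0.50, which shrinks low values by construction. Leaving out each library in turn gave 84 to 168 members at an unadjusted p of 0.05 in H520, 4 to 15 in A549 and 14 to 67 for the interaction, with 67 without A549 BaP transfection 1, and 0 adjusted calls throughout. Over all tags, these fits had 4824 to 5953 of at least 223828 tags higher and 4784 to 6119 lower in H520. In A549 the counts were 1901 to 3543 and 2295 to 4521 of at least 223046. For the interaction they were 3235 to 4952 and 3236 to 4653 of at least 222674. Leaving out each library gave a median BaP log2 fold change of 0.05 (without H520 DMSO transfection 3) to 0.11 in H520 and -0.03 to 0.04 in A549, and a carriers' median of 0.63 to 0.66. Depth limits single members most in the inputs, which have 1 library per line.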
